A study of Mus musculus with 9 samples.

Results

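The genes described are 29 members of base excision repair, repair of DNA strand breaks on one strand, and mismatch repair, taken by symbol from a table of 56691 mouse genes. Each symbol had 1 row, so 29 rows were used, and 29 of 29 passed the filter on low counts that left 14151 genes to test. They comprise 11 DNA glycosylases, 2 AP endonucleases, 5 genes of gap filling and ligation, 5 of strand break sensing and end processing, and 6 of mismatch repair. RNA was sequenced from NIH/3T3 cells, an established line of mouse embryonic fibroblasts labelled wild type, in 3 groups of 3 libraries: cells given UVA at 10 J/cm2 and alpha-arbutin (a glycosylated hydroquinone; called co-treated cells here, whatever the order of treatment), cells given the same UVA dose alone, and control cells with no treatment stated. The titles of the libraries given UVA alone read MOCK, and their group was taken from the treatment label. By its design text, the series was made to test alpha-arbutin against UVA damage, and names DNA repair as an outcome. The sources used here do not give the alpha-arbutin dose, the time to harvest or any mock irradiation of the controls, and no label says whether the libraries of a group came from separate cultures, so p-values measure only the spread between these libraries, which may be technical.

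Base excision repair starts when a glycosylase cuts a damaged base from its sugar. An AP endonuclease then nicks the strand, a polymerase fills the gap, and a ligase seals it, with XRCC1 and the PARP enzymes at the open break. Mismatch repair reads the daughter strand after replication: a MutS complex binds the mispair, a MutL complex nicks, and an exonuclease removes the stretch to be resynthesised. UVA is absorbed weakly by DNA itself and is known to act largely through photosensitisers and reactive oxygen, whose main base lesion, oxidised guanine, is a substrate of base excision repair.

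Libraries held between 16298348 and 20862894 counts, and the 29 genes took 0.0989% to 0.106% of them. Fibroblast markers summed to between 8365 and 8997 CPM (counts scaled to a common library total with TMM factors) in co-treated, 8650 and 8898 in UVA and 11936 and 12319 in control libraries. Immune markers stayed at 6.53 to 10.9 CPM and epithelial, endothelial and muscle markers at 0.871 to 6.69 CPM over all libraries. Melanocyte markers summed to between 6.08 and 6.30 CPM in co-treated, 5.62 and 6.05 in UVA and 8.07 and 8.43 in control libraries. Among the markers at 0 in every library were Cd3e, Epcam, Krt5, Myod1 and Dct. The fibroblast sum was lower in both irradiated groups, and its part in the values below was not tested. In RNA from whole cultures, fewer cells expressing a gene and less RNA per cell cannot be told apart.

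The stretch before the transcription start is shown for the 4 members that passed the test in any comparison. This choice rests on the threshold alone and does not show that the other members stayed unchanged. The sequences are from RefSeq on GRCm38.p6 (the counts are on mm39), run 5′ to 3′ on the gene's strand over the 250 bases that end at the base before the start, and carry in capitals every match, on either strand, to an E2F-type motif (TTCCCGC, or the variants TTCGCGC and TTGGCGC), an NRF2-type motif (TGACNNNGC), a CCAAT box (CCAAT) or a GC box (GGGCGG).
Neil1, chr9:57148306-57148555, minus strand: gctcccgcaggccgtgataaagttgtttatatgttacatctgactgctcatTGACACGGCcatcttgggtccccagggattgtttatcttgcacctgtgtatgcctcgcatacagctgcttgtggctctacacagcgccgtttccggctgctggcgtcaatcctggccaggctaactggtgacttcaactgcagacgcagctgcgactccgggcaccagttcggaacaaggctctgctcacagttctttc
Neil3, chr8:53639066-53639315, minus strand: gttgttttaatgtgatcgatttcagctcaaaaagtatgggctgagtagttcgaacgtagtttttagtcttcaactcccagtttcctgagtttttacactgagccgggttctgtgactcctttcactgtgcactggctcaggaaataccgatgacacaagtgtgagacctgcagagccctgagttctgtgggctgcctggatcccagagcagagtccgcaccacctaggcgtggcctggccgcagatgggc
Tdg, chr10:82629588-82629837, plus strand: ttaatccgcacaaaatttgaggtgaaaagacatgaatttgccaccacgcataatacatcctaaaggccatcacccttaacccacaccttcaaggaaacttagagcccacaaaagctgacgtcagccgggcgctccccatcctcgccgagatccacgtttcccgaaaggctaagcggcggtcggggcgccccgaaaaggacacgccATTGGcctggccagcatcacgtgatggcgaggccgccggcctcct
Smug1, chr15:103163285-103163534, minus strand: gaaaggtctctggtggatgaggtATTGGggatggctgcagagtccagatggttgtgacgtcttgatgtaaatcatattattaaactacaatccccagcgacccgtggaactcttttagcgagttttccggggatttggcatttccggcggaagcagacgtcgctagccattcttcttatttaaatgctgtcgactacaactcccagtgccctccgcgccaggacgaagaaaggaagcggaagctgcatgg
Neil1 holds 1 NRF2-type match, 199 to 191 bases before the start, Tdg and Smug1 hold 1 CCAAT box each in reverse orientation, and Neil3 holds none of the motifs. The table had 31 windows for 25 of the 29 members (Neil2, Apex2, Polb and Exo1 have no entry) among 32851 windows in all. A CCAAT box was in 58.1% of the members' windows, against 33.8% of all windows, a GC box in 45.2% against 32.7%, an E2F-type motif in 16.1% against 6.69%, and an NRF2-type motif in 6.45% against 10.2%. The E2F-type matches were in Apex1, Fen1, Msh3, Nthl1 and Pms1, none of which passed the test in any comparison. The members' windows had a median GC content of 58.8%, against 52.4% over all windows, and the motifs differ in GC content and can overlap one another, so these shares are a description only.

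The members spanned a wide range of transcript levels (see the plot of FPKM by member). Per length, in the deposited FPKM (counts scaled to exonic length and library total) averaged over 9 libraries, Parp1, which senses strand breaks and builds poly(ADP-ribose), was highest at 40.4 FPKM. Msh6, a mismatch-binding MutS subunit, followed at 36.3, Lig1, the replicative DNA ligase, at 28.2 and Apex1, the main AP endonuclease, at 23.7 FPKM. These levels stand at percentiles 91.6, 90.5, 87.0 and 84.2 of all tested genes.

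**Figure D1:**
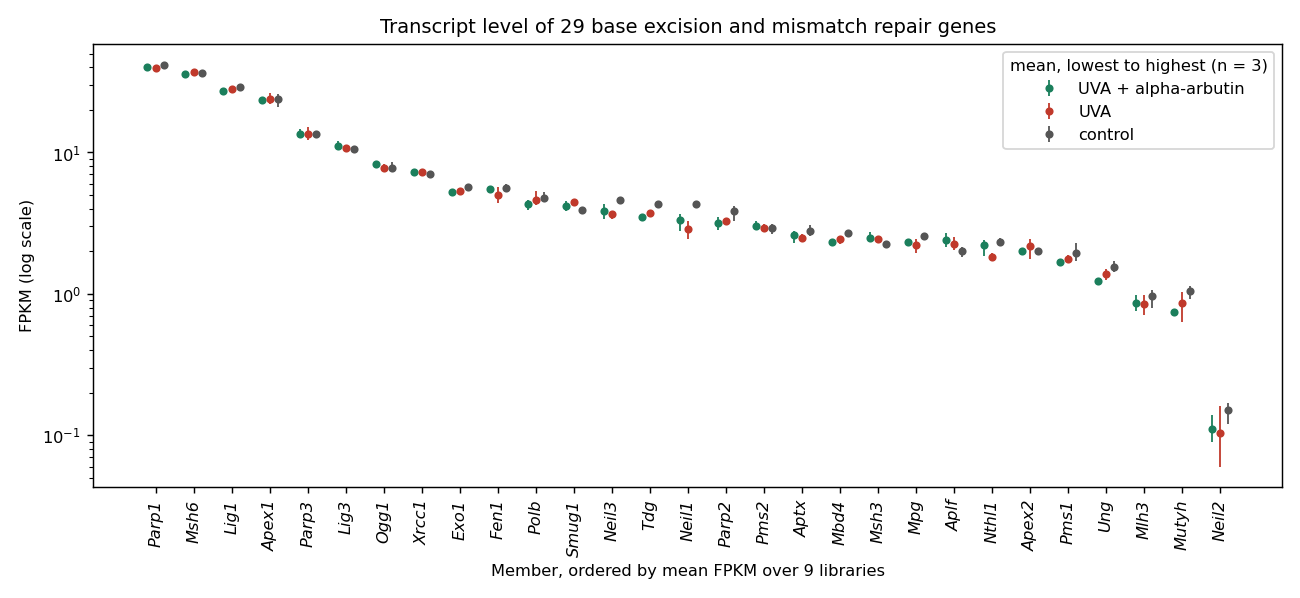
FPKM on a log scale (y axis) of the 29 members (x axis, ordered by mean over 9 libraries) in co-treated, UVA and control cells; points are group means and lines run from the lowest to the highest of 3 libraries. Means over 9 libraries run between 40.4 FPKM for Parp1 and 0.121 FPKM for Neil2, and the groups lie close together for most genes.

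The glycosylases sat lower. Ogg1, which removes oxidised guanine, led them at 7.96 FPKM, ahead of Smug1 at 4.18, Neil3 at 4.06, Tdg at 3.86 and Neil1 at 3.51 FPKM. This lead rests on the exonic lengths used, 2187 bases for Ogg1 and 6141, 5555 and 5374 for Smug1, Neil3 and Tdg. In counts over 9 libraries Ogg1, at 2829, was below Smug1 at 4161, Neil3 at 3654 and Tdg at 3369. Mutyh, which removes adenine paired with oxidised guanine, stood at 0.890 FPKM and Neil2 at 0.121 FPKM. The median member was at 3.51 FPKM, against 5.63 FPKM for all tested genes, and 8 of 29 members were above that value. In this order 20 of 28 neighbouring pairs had ranges over the 9 libraries that overlapped. The pairs that did not overlap were Parp1 over Msh6, Msh6 over Lig1, Apex1 over Parp3, Parp3 over Lig3, Lig3 over Ogg1, Xrcc1 over Exo1, Ung over Mlh3 and Mutyh over Neil2.

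Replicates of a group agreed to about the same degree as for other genes, with a median coefficient of variation of 7.54% over the members, against 6.85% over all tested genes. Tdg varied by 1.99% and Parp1 by 2.19% within groups, while Mutyh, with 378 counts over all libraries, varied by 13.1% and Neil2, with 99, by 31.5%. The 95% interval of Neil2 in UVA against control cells ran from -1.54 to 0.33 on the log2 scale, so changes of the size of the other members' estimates were not detectable at this depth.

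The comparison of UVA with control cells asks whether irradiation alone moved these genes. Most did not pass: 3 of 29 members were called at an adjusted p below 0.05 (edgeR's quasi-likelihood test, Benjamini-Hochberg over all tested genes), or 10.3%, against 29.3% of all 14151 genes. Neil1 and Neil3 fell, against 14.6% of all genes lower, and Smug1 rose, against 14.7% higher. These are 3 of 11 glycosylases, or 27.3%, near the share over all genes. At an unadjusted p below 0.05 there were 5 members (Nthl1 and Tdg in addition), against 38.9% of all genes. The median log2 fold change of the members was -0.08, against 0.00 over all tested genes, and the median absolute value 0.13 against 0.16. Estimates ran from -0.60 for Neil2 to 0.21 for Smug1, 18 below 0 and 11 above, against 7005 and 7146 over all genes. The 95% intervals of 25 members lay wholly inside a 1.5-fold change in either direction, as did those of 9476 of all 14151 genes. Those of Mutyh, Neil1, Neil2 and Nthl1 reached beyond it.

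**Figure D2:**
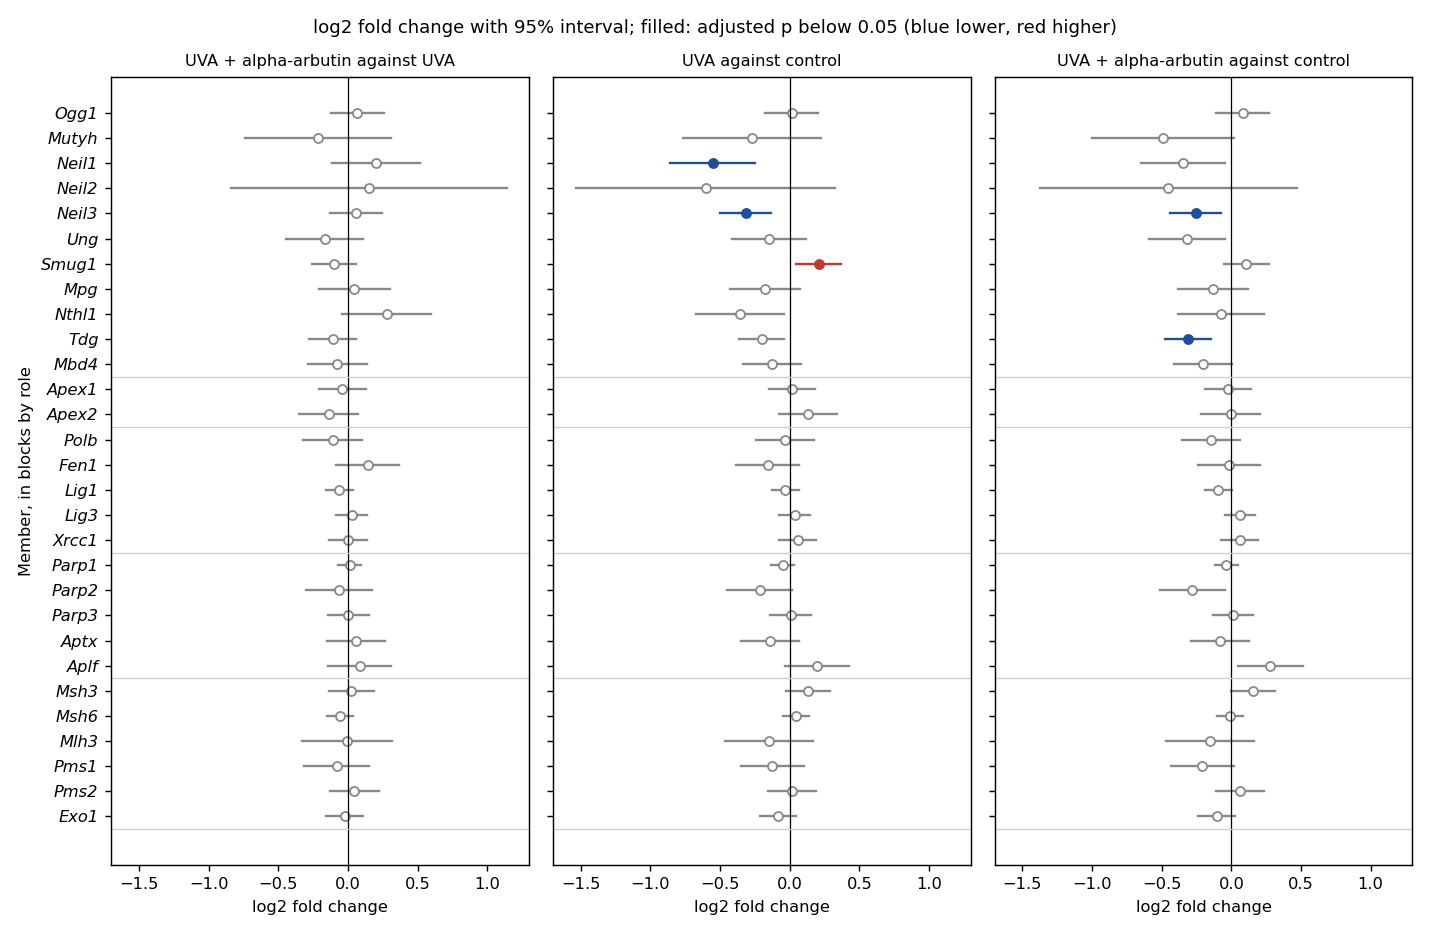
Fold changes on the log2 scale (x axis) with 95% intervals for the 29 members (y axis, in blocks for glycosylases, AP endonucleases, gap filling and ligation, strand break sensing and end processing, and mismatch repair) in co-treated against UVA, UVA against control, and co-treated against control cells. Filled points passed at an adjusted p below 0.05: 0, 3 and 2 members in these comparisons. They are 27.3% of the 11 glycosylases in UVA against control cells, against 29.3% of all genes, and 18.2% in co-treated against control cells, against 25.8%.

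Neil1 encodes a glycosylase for oxidised bases that also works on open and replicating DNA (ENSMUSG00000032298, chromosome 9, 57050084 to 57055589, minus strand, mm39). It had 6.71, 6.90 and 5.25 CPM in co-treated, 5.54, 4.57 and 6.15 CPM in UVA and 8.31, 7.69 and 8.0 CPM in control libraries. Every UVA library and every co-treated library was below every control library. UVA cells averaged 5.42 ± 0.797 CPM and control cells 8.0 ± 0.309 CPM (SD, n = 3). On the log2 scale the difference was -0.55 ± 0.15 (SE, with 95% limits of -0.86 and -0.25; adjusted p = 0.00533). The call held in all 14 alternative settings run for this comparison, with adjusted p between 0.00326 and 0.0370.

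Neil3, a related glycosylase that acts on DNA in replicating cells, also fell (ENSMUSG00000039396, chromosome 8, 54039902 to 54092100, minus strand). Its level was 24.2, 21.3 and 19.0 CPM in co-treated, 21.5, 21.4 and 19.0 CPM in UVA and 26.8, 24.5 and 25.6 CPM in control libraries. Here again no irradiated library reached the lowest control library. The log2 fold change in UVA against control cells was -0.32 ± 0.09 (-0.50 to -0.13; adjusted p = 0.00773), and without UVA replicate 3 the call ended (adjusted p = 0.0535).

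Smug1, which removes uracil and some oxidised pyrimidines, went the other way (ENSMUSG00000036061, chromosome 15, 103061717 to 103075519, minus strand). Libraries held 23.9, 27.8 and 25.5 CPM in co-treated, 28.5, 27.1 and 27.1 CPM in UVA and 24.4, 23.1 and 24.1 CPM in control cells. UVA libraries were above all control libraries, whereas co-treated libraries spread over both. The log2 fold change was 0.21 ± 0.08 (0.05 to 0.37; adjusted p = 0.0447), and this call ended without any 1 of the 6 libraries compared (adjusted p between 0.0673 and 0.143), with DESeq2 (0.0715), with no filter on low counts (0.113) and in limma on FPKM (0.102) and on TPM (0.189).

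**Figure D3:**
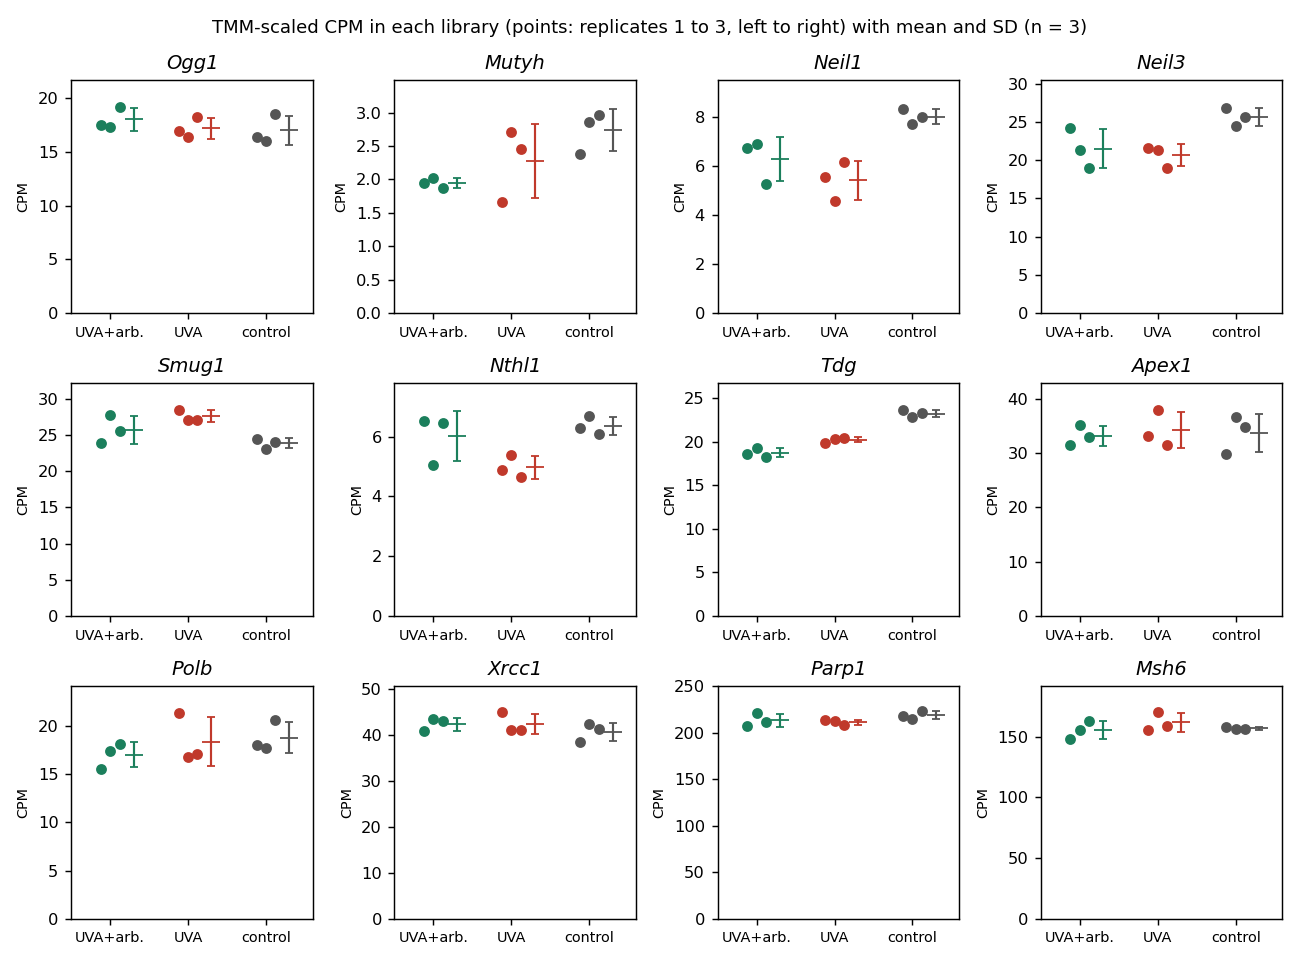
TMM-scaled CPM (y axis, from 0) of 12 members in each co-treated, UVA and control library, with the mean and SD (n = 3) beside the points. Neil1, Neil3 and Tdg lie lower in all 6 irradiated libraries than in the 3 control libraries, while Ogg1, Apex1, Xrcc1 and Msh6 overlap between groups.

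Other glycosylases for oxidised bases did not pass. Nthl1, which removes oxidised pyrimidines, had 6.53, 5.04 and 6.47 CPM in co-treated, 4.87, 5.37 and 4.65 CPM in UVA and 6.27, 6.68 and 6.08 CPM in control libraries. Its UVA libraries lay below all control libraries, with a log2 fold change of -0.36 ± 0.15 (-0.67 to -0.04; adjusted p = 0.0837), and it passed in limma on log2(TPM + 1) (adjusted p = 0.0410). Ogg1 had 17.6, 17.3 and 19.2 CPM in co-treated, 16.9, 16.4 and 18.3 CPM in UVA and 16.4, 16.0 and 18.6 CPM in control libraries. The groups overlapped, and the log2 fold change of 0.01 ± 0.09 in UVA against control cells had an interval of -0.18 to 0.21 (adjusted p = 0.928). Mutyh had 1.95, 2.03 and 1.88 CPM in co-treated, 1.66, 2.72 and 2.45 CPM in UVA and 2.38, 2.86 and 2.97 CPM in control libraries. UVA and control libraries overlapped, and the log2 fold change was -0.27 ± 0.24 (-0.77 to 0.22; adjusted p = 0.437). The Ogg1 gene overlaps Camk1 on the other strand by 945 bases, and without known strandedness of the counting their reads there cannot be told apart.

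Tdg, which removes thymine mispaired with guanine and takes part in DNA demethylation, missed the threshold (ENSMUSG00000034674, chromosome 10, 82465662 to 82486633, plus strand). Levels were 18.6, 19.4 and 18.3 CPM in co-treated, 19.9, 20.4 and 20.4 CPM in UVA and 23.6, 22.8 and 23.3 CPM in control libraries. The groups did not overlap at all: co-treated libraries were lowest and control libraries highest. In UVA against control cells the log2 fold change was -0.20 ± 0.08 (-0.36 to -0.04; adjusted p = 0.0588), and both limma fits called it (adjusted p = 0.0421 on FPKM and 0.0252 on TPM). Tdg overlaps Glt8d2 on the other strand by 367 bases, and Glt8d2 had a log2 fold change of 0.92 ± 0.12 in the same comparison (adjusted p = 3.79e-07).

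In all, 9 of the 29 members had UVA and control libraries that did not overlap, against 42.0% of all tested genes: 3 higher, against 21.1%, and 6 lower, against 20.9%. Besides the genes above, they were Mbd4, which removes thymine from mispairs at methylated CpG sites, at a log2 fold change of -0.13 ± 0.10, Parp1 at -0.05 ± 0.04, Lig3 at 0.04 ± 0.05 and Msh3 at 0.13 ± 0.08. These differences were small and had adjusted p between 0.224 and 0.670.

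Of 2 AP endonucleases, 5 gap filling and ligation genes, 5 strand break genes and 6 mismatch repair genes, 0 passed by edgeR in UVA against control cells, against 29.3% of all genes, and 0 had an unadjusted p below 0.05, against 38.9%. DESeq2 called 0 of them as well; limma on log2(TPM + 1) called Parp1 (adjusted p = 0.0494). Apex1 had 31.5, 35.2 and 33.0 CPM in co-treated, 33.2, 38.0 and 31.6 CPM in UVA and 29.9, 36.6 and 34.8 CPM in control libraries. Its groups overlapped, with a log2 fold change of 0.02 ± 0.08 (-0.15 to 0.18; adjusted p = 0.906) in UVA against control cells. Apex1 overlaps Pip4p1 on the other strand by 1072 bases.

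Polb, the polymerase that fills the gap, had 15.6, 17.4 and 18.1 CPM in co-treated, 21.3, 16.7 and 17.1 CPM in UVA and 18.1, 17.7 and 20.6 CPM in control libraries. Its scaffold partner Xrcc1 had 40.8, 43.5 and 43.0 CPM in co-treated, 45.1, 41.2 and 41.1 CPM in UVA and 38.6, 42.4 and 41.3 CPM in control libraries. For both, UVA and control libraries overlapped. Their log2 fold changes were -0.04 ± 0.10 (-0.24 to 0.17; adjusted p = 0.835) for Polb and 0.06 ± 0.06 (-0.07 to 0.19; adjusted p = 0.548) for Xrcc1. The ligation and flap genes Lig1, Lig3 and Fen1 were at -0.03 ± 0.05, 0.04 ± 0.05 and -0.16 ± 0.11.

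Parp1, the most abundant member, gave the narrowest limits. It had 207, 221 and 212 CPM in co-treated, 213, 212 and 208 CPM in UVA and 218, 214 and 223 CPM in control libraries. All UVA libraries were below all control libraries, by a log2 fold change of -0.05 ± 0.04 (-0.13 to 0.03; adjusted p = 0.395). Parp2, a second enzyme of the same kind, was at -0.22 ± 0.11, Parp3 at 0.01 ± 0.07, Aptx, which clears failed ligation ends, at -0.14 ± 0.10, and Aplf, a factor that binds poly(ADP-ribose), at 0.20 ± 0.11, with adjusted p between 0.157 and 0.949.

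No mismatch repair gene passed. Msh6 had 148, 156 and 163 CPM in co-treated, 156, 170 and 159 CPM in UVA and 158, 156 and 156 CPM in control libraries. UVA and control libraries overlapped, with a log2 fold change of 0.04 ± 0.05 (-0.05 to 0.14; adjusted p = 0.519). Msh3, the alternative MutS subunit, was at 0.13 ± 0.08, the MutL subunit genes Pms2, Pms1 and Mlh3 at 0.02 ± 0.08, -0.13 ± 0.11 and -0.15 ± 0.15, and the exonuclease gene Exo1 at -0.08 ± 0.06. All 6 intervals lay inside a 1.5-fold change, as did those of 9476 of all 14151 genes.

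**Figure D4:**
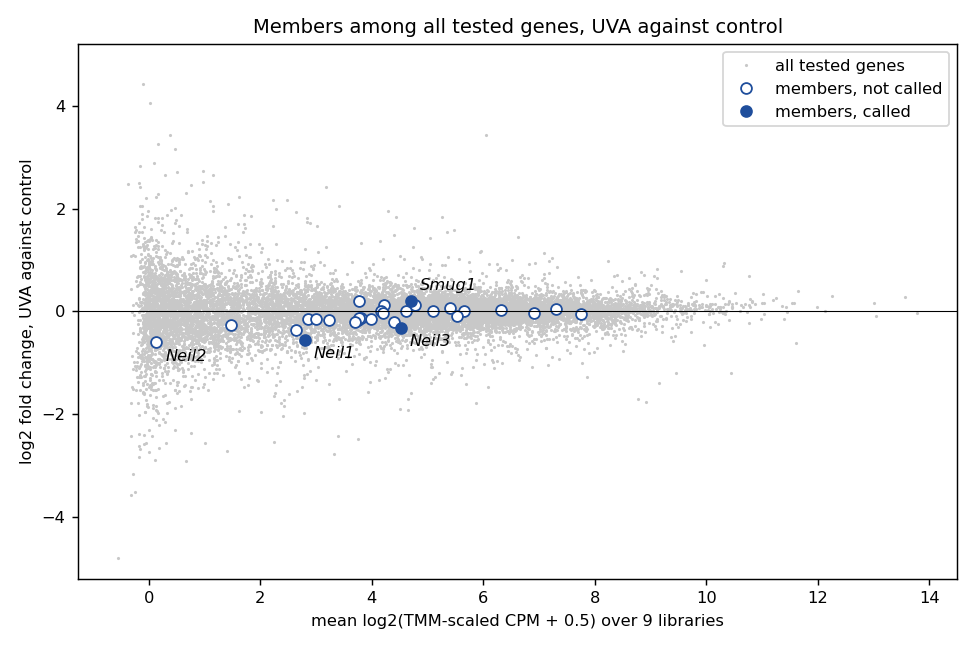
Log2 fold change in UVA against control cells (y axis) by mean level over 9 libraries, as log2 of TMM-scaled CPM + 0.5 (x axis), for all 14151 tested genes (grey) and the 29 members (blue; filled where the adjusted p was below 0.05). Members lie between -0.60 (Neil2) and 0.21 (Smug1), inside the cloud of other genes.

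Other genes of these pathways, of replication and of mitosis were described from lists of their own. Of 26 further genes listed with base excision and strand break repair, 5 rose and 6 fell in UVA against control cells. This was 42.3%, against 29.3% of all genes (14.7% higher and 14.6% lower), with a median of -0.05. The list also holds subunits of replicative polymerases delta and epsilon and genes such as Mgmt that reverse alkylation. Its share is therefore not one of base excision repair alone. Pold4, a small subunit of replicative polymerase delta, averaged 33.2 ± 4.76 CPM in UVA and 19.1 ± 1.92 CPM in control cells (SD, n = 3), which on the log2 scale is 0.81 ± 0.09 (adjusted p = 1.00e-07). Pole4 rose at 0.30 ± 0.06, Mgmt, which reverses guanine alkylation, rose at 0.50 ± 0.11, and the polymerase epsilon catalytic gene Pole fell at -0.23 ± 0.05. Pold4, Pole4, Pole and Mgmt are named because they had the smallest p of the list, and its other called genes are not named here. Of 12 tested clamp, replication factor and further mismatch repair genes (13 listed), 2 rose and 1 fell, or 25.0%, near the 29.3% of all genes. They were Pcna, the sliding clamp, at 0.17 ± 0.04, the clamp loader gene Rfc5 at 0.16 ± 0.05, and the single-strand binding subunit gene Rpa1 at -0.30 ± 0.04 (adjusted p = 4.86e-07). Among 25 S-phase genes 6 rose and 2 fell, or 32.0%, near the share over all genes, with a median of 0.12. Among 18 mitosis genes 4 rose and 4 fell, or 44.4%, against the same 29.3%, with a median of -0.02. Of the genes named here, Pole, Pole4, Pcna and Rfc5 overlap genes on the other strand.

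Setting co-treated beside UVA cells asks whether alpha-arbutin moved these genes in irradiated cells. It called 0 of 29 members by edgeR, against 0.0353% of all tested genes (5 genes; 0.0283% higher and 0.00707% lower), and 0 members had an unadjusted p below 0.05, against 6.76% of all genes. DESeq2 and each of the other alternative settings also called 0. The members' median log2 fold change was -0.000079, with a median absolute value of 0.07 (0.07 also over all tested genes), and estimates ran from -0.22 for Mutyh to 0.28 for Nthl1. Intervals of 26 members lay inside a 1.5-fold change, against 10602 of all 14151 genes. Mutyh, Neil2 and Nthl1 were the exceptions among the members.

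For Neil1, Neil3 and Smug1, called in UVA against control cells, co-treated and UVA libraries overlapped. Neil1 averaged 6.29 ± 0.900 CPM in co-treated and 5.42 ± 0.797 CPM in UVA cells (SD, n = 3), which on the log2 scale is 0.20 ± 0.15 (-0.11 to 0.52; adjusted p = 0.859). Neil3 was at 0.06 ± 0.09 (-0.13 to 0.25) and Smug1 at -0.10 ± 0.08 (-0.26 to 0.06), with adjusted p of 0.938 and 0.864. Nthl1, with the highest estimate, averaged 6.01 ± 0.842 CPM in co-treated and 4.97 ± 0.370 CPM in UVA cells, at 0.28 ± 0.16 (-0.04 to 0.60; adjusted p = 0.791). Ogg1 was at 0.07 ± 0.09 (-0.12 to 0.26), Apex1 at -0.04 ± 0.08 (-0.21 to 0.13), Polb at -0.11 ± 0.10 (-0.32 to 0.10), Parp1 at 0.01 ± 0.04 (-0.07 to 0.10) and Msh6 at -0.06 ± 0.05 (-0.15 to 0.04). These intervals give the differences that the libraries leave possible, and a p that misses the threshold does not show that the groups were alike.

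Only Ung, the main uracil glycosylase, and Tdg had co-treated and UVA libraries that did not overlap, both lower in co-treated cells, against 10.8% of all tested genes in either direction (5.45% higher and 5.31% lower). Ung had 6.65, 6.95 and 6.63 CPM in co-treated, 6.97, 7.47 and 8.26 CPM in UVA and 7.73, 9.32 and 8.19 CPM in control libraries. Its log2 fold change in co-treated against UVA cells was -0.17 ± 0.13 (adjusted p = 0.869), and that of Tdg was -0.11 ± 0.08 (adjusted p = 0.852).

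The comparison of co-treated with control cells uses the same control libraries as that of UVA with control cells, so the values stand side by side and the comparisons are not independent. It called 2 of 29 members, or 6.90%, against 25.8% of all tested genes. Both fell, against 12.9% of all genes lower and 13.0% higher. At an unadjusted p below 0.05 there were 6 members, against 35.8% of all genes. Tdg averaged 18.8 ± 0.541 CPM in co-treated and 23.3 ± 0.404 CPM in control cells (SD, n = 3), which on the log2 scale is -0.31 ± 0.08 (-0.48 to -0.15; adjusted p = 0.00458), and the call held in all 14 alternative settings (adjusted p between 0.00440 and 0.0213). The overlapping Glt8d2 was at 0.85 in this comparison. Neil3 averaged 21.5 ± 2.58 CPM in co-treated and 25.6 ± 1.19 CPM in control cells, at -0.26 ± 0.09 (-0.44 to -0.07; adjusted p = 0.0330). The Neil3 call ended without co-treated replicate 2 (adjusted p = 0.0788) or 3 (0.203), without control replicate 1 (0.123) or 3 (0.0841), and in both limma fits (0.0849 on FPKM and 0.0765 on TPM).

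Neil1, called in UVA cells, was at -0.35 ± 0.15 in co-treated against control cells (-0.65 to -0.05; adjusted p = 0.0811), and Smug1 at 0.11 ± 0.08 (adjusted p = 0.350). Mutyh had its lowest estimate here, -0.49 ± 0.25 (adjusted p = 0.157), and all 3 co-treated libraries were below all control libraries. Ung was at -0.32 ± 0.13 (adjusted p = 0.0795), Parp2 at -0.28 ± 0.11 (0.0688) and Aplf at 0.28 ± 0.11 (0.0679). Co-treated and control libraries did not overlap for 9 members, 2 higher (Aplf and Msh3) and 7 lower, all 7 of them glycosylases (Mutyh, Neil1, Neil3, Ung, Mpg, Tdg and Mbd4), against 39.7% of all tested genes (19.8% higher and 19.9% lower). Estimates were below 0 for 9 of 11 glycosylases in this comparison, against 7018 of all 14151 genes, with a median of -0.26 against 0.00. In UVA against control cells they were below 0 for 9 of 11, against 7005 of 14151, with a median of -0.20 against 0.00. The list of 26 further genes, replicative polymerase subunits and Mgmt included, had 4 higher and 5 lower in co-treated against control cells. This was 34.6%, against 25.8% of all genes.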

How the data were processed

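Per the labels' protocols, libraries were made from total RNA with a VAHTS Universal V8 kit. Per the file headers, the authors deposited a raw count and an FPKM value per gene and library, with the exonic length of the gene. HISAT2 2.2.1, HTSeq 0.6.1, cutadapt 1.9.1, bcl2fastq 2.20.0.422 and the build mm39 appear, per the submitters' processing notes, with no role. The sources used here give neither strandedness nor annotation release. The deposited FPKM equals count over exonic size and total count (510219 of 510219 values within 0.01). The column prefix NC was taken as the control titles, since every other prefix matches a title.

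Counts were tested with edgeR 4.0.16 in R 4.3.3 (filterByExpr, TMM with factors of 0.992 to 1.01, quasi-likelihood F-test, two-sided), all 9 libraries in 1 fit on group alone, 3 comparisons, Benjamini-Hochberg over 14151 genes, called below 0.05. SE and 95% intervals come from the F statistic. Alternatives used limma 3.58.1 on log2(FPKM + 1) and log2(TPM + 1), and DESeq2 1.42.0. The steps were tested on simulated data. Members with values in every library are those called in any comparison plus Ogg1, Mutyh, Nthl1, Apex1, Polb, Xrcc1, Parp1 and Msh6; from each other repair list up to 4 with the smallest p were eligible. Other genes given by library or named for not overlapping were chosen after their values were seen. Members and lists were chosen with earlier results of these data known. No replicate pair differed by as little as counting error (chi-square per gene 2.28 to 5.04).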

Additional observations from a re-analysis of the deposited data

How the results depend on the processing

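In UVA against control cells the count of members called stayed at 2 or 3 in 12 of 14 alternatives, against 3 as reported. With log2(TPM + 1) in limma it was 5, all lower (Neil1, Neil3, Nthl1, Tdg and Parp1), and with 1 library left out it ran from 1 (without UVA replicate 3) to 2. Among all tested genes 3336 of 14459 were called without UVA replicate 3. The 12 alternatives at 2 or 3 members called between 3213 genes (without control replicate 3) and 4359 genes (replicate block). Over all genes limma gave 1548 higher and 1876 lower on FPKM and 1182 and 2287 on TPM, against 2078 and 2064 in edgeR. Both the test and the scale differ from edgeR's, and the cause was not tested. The all-gene median on TPM was -0.04. In co-treated against UVA cells the count was 0 in 14 of 14. Over all genes that comparison called 5, but 13 with DESeq2, 29 with no filter on low counts, 19 with the replicate block, 0 in both limma fits, and 1 to 22 with 1 library left out (22 without UVA replicate 3). In co-treated against control cells the count of members was 2, with 1 in both limma fits and 1 to 4 with 1 library left out (4 without co-treated replicate 1). Over all genes that comparison called 3657 of 14151, and limma called 2994 on FPKM and 3019 on TPM. With 1 library left out it ran from 2774 of 14454 (without control replicate 3) to 3491 of 14502 (without co-treated replicate 1).

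The replicate block gave 3, 0 and 3 members in these comparisons (Aplf was added in the last), with 4359, 19 and 3930 of all 14151 genes called. It is a hint only, since deviations of same-numbered libraries correlated at only -0.00871 to 0.0756 across genes, under the 0.1 taken to show pairing. Between co-treated and UVA libraries the same-numbered pairs were at 0.0453, 0.0390 and 0.0756. Differently numbered pairs of those 2 groups were lower, at -0.0706 to 0.0259. Signs changed for members with estimates near 0 and no call. On log2(TPM + 1), UVA against control, Ogg1 was at -0.0338, Apex1 at -0.0291 and Msh6 at -0.00936. For Xrcc1 in co-treated against UVA cells the value was 0.000484 with RLE factors, 0.000451 with DESeq2, 0.00639 on FPKM and 0.0251 on TPM. With 1 library left out, UVA against control values ran from -0.0319 to 0.0847 for Ogg1, -0.0618 to 0.0762 for Apex1 and -0.156 to 0.0394 for Polb. In co-treated against UVA cells they ran from -0.0319 to 0.141 for Neil3, -0.0979 to 0.0374 for Apex1, -0.167 to 0.0116 for Polb, -0.0244 to 0.0451 for Xrcc1 and -0.0134 to 0.0342 for Parp1. In co-treated against control cells they ran from -0.137 to 0.0343 for Nthl1, -0.103 to 0.0353 for Apex1 and -0.0468 to 0.0232 for Msh6. Depth limits Neil2 and Mutyh most.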

Other observations

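Several members share their ends with a gene on the other strand, and 16 of 29 overlap one in the table's annotation. Only 11 members overlap a gene with at least 100 counts over 9 libraries. Mpg overlaps Nprl3, on the other strand with 4216 counts, over its whole span of 6196 bases. Parp3 and Rrp9, a gene for a small nucleolar ribonucleoprotein, overlap by 987 bases and were, in UVA against control cells, at log2 fold changes of 0.01 ± 0.07 and 0.17 ± 0.08 (adjusted p of 0.949 and 0.119). Msh6 and Fbxo11, a ubiquitin ligase subunit gene, overlap by 34 bases and were at 0.04 ± 0.05 and -0.12 ± 0.05 (0.519 and 0.0665). Neil1, Neil3 and Smug1 overlap no other gene in the table. Apex2, the second AP endonuclease gene, overlaps Alas2 and Pfkfb1 on the other strand and had 21.8, 15.6 and 20.3 CPM in the UVA libraries, against 18.2, 18.1 and 16.5 CPM in the control libraries; UVA replicate 2 was below every control library.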
